A study of Mus musculus with 35 samples.

Results

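The 10 genes described here mark the contractile cells of the blood vessel wall and were followed through sorted cells of mouse hind paw skin after paclitaxel. They were chosen by symbol: Rgs5, Pdgfrb, Cspg4, Mcam, Acta2, Tagln, Myh11, Myl9, Cald1 and Des. All 10 had a row among the 22609 gene symbols of the count tables, and all 10 passed the filter on low counts in every fit. Pericytes wrap capillaries and small venules and share the basement membrane with the endothelium, while smooth muscle cells ring arterioles and larger vessels. Both depend on platelet-derived growth factor from endothelial cells, which the receptor beta receives, and both carry a contractile apparatus that serum response factor and its myocardin partners switch on. In skin, smooth muscle also forms the arrector pili muscles, and the myoepithelial cells of sweat glands share the actin program.

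The series holds 35 messenger RNA libraries of cells sorted from paw skin of C57 mice aged 8 to 16 weeks. Fibroblasts were tdTomato-positive cells of Col1a2-cre-ER/tdTom mice, immune cells were CD45-positive cells of wild-type mice, and keratinocytes were tdTomato-positive cells of K5-cre-ER/tdTom mice. Each sort had a group of males given paclitaxel (PTX, a drug that stabilises microtubules), a group of vehicle females and a group of vehicle males. PTX was given intraperitoneally as 2 injections of 2 mg/kg separated by a day, with skin collected 6 days after the final dose; the PTX keratinocytes carry the treatment label PTX-short, and how it differs from PTX in the other sorts is not given there. There were 9 groups of 4 libraries, with 3 rather than 4 for vehicle male keratinocytes. The tdTomato sorts take any cell with the reporter after Cre activity under the Col1a2 or K5 driver, and how Cre was induced is not given in the sources used here. No female PTX group was analysed here, so PTX and sex cannot be told apart where PTX males are set against vehicle females.

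Counts in genes ranged from 13359088 to 20809036 per fibroblast library, from 13847475 to 18979776 per immune library and from 6518070 to 12055718 per keratinocyte library, apart from replicate 2 of the vehicle females with 988712. Fibroblasts and immune cells held much of their own defining marker. Col1a2, a fibrillar collagen gene, had 3673 to 14100 CPM (reads scaled to a common library size) in the 12 fibroblast libraries. Ptprc, the CD45 gene, had 357 to 842 CPM in the 12 immune libraries. The immune libraries also held Col1a2, at 469 to 1229 CPM in vehicle males, 7.48 to 44.3 CPM in vehicle females and 61.8 to 243 CPM in PTX males. Their Krt5 was 19.5 to 579.5 CPM in vehicle males, 0.0624 to 25.0 CPM in vehicle females and 0.155 to 0.265 CPM in PTX males. Krt5 had 880 to 3350 CPM in the PTX keratinocytes, 3146 to 5859 CPM in those of vehicle females and 3262 to 5965 CPM in those of vehicle males. The PTX keratinocytes also held 1177 to 2853 CPM of Col1a2, against 3.83 to 24.6 CPM in those of vehicle females and 0.864 to 1.12 CPM in those of vehicle males. Nothing in the labels ties a library to its own mouse; the spread behind every p-value is therefore that of these samples, and may be technical. In bulk libraries of sorted cells, fewer cells of a type and less RNA per cell cannot be told apart.

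Promoter sequence is shown for the 3 genes on which the fibroblast results turn or by which the contractile program is best known. RefSeq windows of the build GRCm38.p6 were matched by symbol for 7 of the 10 genes, and the 250 bases before the start are used. These windows were searched on both strands for exact matches to 2 motifs. The first was the CArG box, which serum response factor binds, in its strict form CCWWWWWWGG (W is A or T). The second was the MCAT element CATTCC, which TEAD factors bind. Capitals mark the matches; Rgs5 lies on the plus strand at chr1:169655251-169655500, Acta2 on the minus strand at chr19:34255374-34255623 and Myl9 on the plus strand at chr2:156775214-156775463.
Rgs5: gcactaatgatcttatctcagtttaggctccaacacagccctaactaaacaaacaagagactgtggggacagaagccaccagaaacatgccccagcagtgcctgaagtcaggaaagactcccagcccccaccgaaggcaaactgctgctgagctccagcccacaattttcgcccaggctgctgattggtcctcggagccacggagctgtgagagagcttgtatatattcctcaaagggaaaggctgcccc
Acta2: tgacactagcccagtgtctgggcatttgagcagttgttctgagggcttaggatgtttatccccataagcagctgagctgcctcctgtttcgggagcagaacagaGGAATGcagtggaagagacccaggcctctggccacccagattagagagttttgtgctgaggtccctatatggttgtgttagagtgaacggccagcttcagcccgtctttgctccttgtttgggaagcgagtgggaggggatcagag
Myl9: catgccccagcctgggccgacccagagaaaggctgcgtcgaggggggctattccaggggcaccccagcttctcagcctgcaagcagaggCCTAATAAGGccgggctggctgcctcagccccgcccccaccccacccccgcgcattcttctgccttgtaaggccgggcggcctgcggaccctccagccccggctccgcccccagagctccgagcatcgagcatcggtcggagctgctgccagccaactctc
Myl9 held a CArG box at base -161 counted from the start, and Acta2 held an MCAT element on the reverse strand at base -146. Of the 7 genes with a window, 1 held a CArG box and 2 an MCAT element (Acta2 and, at base -153 of 1 of its 2 windows, Cald1). Over the promoters of 27025 genes, 1.62% held a CArG box and 14.4% an MCAT element in the same window. No match, as for Rgs5 or for the CArG box in Acta2, says only that these exact letters are not in these bases. Stretches 1 base off the strict CArG form were not counted. Such stretches are ccctatatgg and ccttgtttgg in the Acta2 window and ccttgtaagg in that of Myl9.

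The main comparison asked whether pericyte and smooth muscle transcripts differ in Col1a2-lineage fibroblasts after PTX. In fibroblasts of PTX males, 9 of the 10 genes had a positive log2 fold change against vehicle males, but none passed the test; Pdgfrb, the exception, turned positive under RLE scaling. The edgeR quasi-likelihood test, adjusted over 10857 genes by Benjamini-Hochberg, called 0 of 10 at 0.05, and it called 0.0184% of all genes (2, Igfbp3 and Col3a1). The lowest adjusted p among the 10 was 0.228, shared by Rgs5 and Mcam. At an unadjusted p under 0.05 there were 3 of 10 genes, against 8.07% of all genes; DESeq2 called 2 of 10 (Rgs5 and Mcam), against 3.91% of all genes, and limma with voom quality weights 0. The PTX and vehicle male libraries did not overlap for 3 of 10 genes, all higher with PTX (Rgs5, Mcam and Myl9), against 1.38% of all genes. The median log2 fold change of the 10 was 1.88, beside 0.08 over all genes tested.

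Rgs5 encodes a regulator of G protein signalling that is the usual pericyte marker. Its level in fibroblasts was 489, 1951, 82.0 and 161 CPM in PTX males, against 280, 175, 116 and 90.7 CPM in vehicle females and 61.9, 78.6, 61.2 and 71.7 CPM in vehicle males. Every PTX library lay above every vehicle male library, whose values spanned little, while the PTX values ran over a wide range and overlapped those of vehicle females. The log2 fold change of PTX males over vehicle males was 3.29 ± 0.749 (SE; adjusted p = 0.228), and over vehicle females 2.02 ± 0.711 (adjusted p = 0.539). PTX replicate 2 set much of that size: without it the log2 fold changes were 1.86 (adjusted p = 0.587) against vehicle males and 0.57 (adjusted p = 0.999) against vehicle females.

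Pdgfrb, the receptor for the endothelial growth signal, is made by fibroblasts as well as mural cells. It had 454, 246, 79.9 and 403 CPM in PTX males, against 493, 221, 400 and 370 CPM in vehicle females and 227, 420, 366 and 169.6 CPM in vehicle males. The 3 groups overlapped throughout, with PTX replicate 3 the lowest of the 12 libraries. The group means were 296 ± 169 CPM in PTX males, 371 ± 113 CPM in vehicle females and 296 ± 117 CPM in vehicle males (SD, n = 4 each). Its sign against vehicle males turned with the scaling, with log2 fold changes of -0.000341 (SE 0.483) after TMM scaling and 0.16 after RLE scaling.

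Cspg4 encodes the proteoglycan NG2, which lines pericytes of capillaries and arterioles. It had 54.7, 116, 32.9 and 37.1 CPM in PTX males, against 112.5, 94.9, 47.0 and 1.54 CPM in vehicle females and 0.611, 85.7, 41.8 and 90.7 CPM in vehicle males. In each sex 1 vehicle library was nearly without the transcript, all groups overlapped, and the sign of its small difference changed with the settings.

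Mcam encodes CD146, an adhesion molecule of pericytes, smooth muscle and endothelium. Its level was 4.81, 74.45, 0.480 and 22.85 CPM in PTX males, against 77.8, 44.2, 9.44 and 70.65 CPM in vehicle females and 0.0764, 0, 0 and 0 CPM in vehicle males. The 4 vehicle male libraries together held 1 read, so the transcript was all but missing there and present in the other groups. Summed over libraries, PTX males held 1193 reads and vehicle females 3827. For PTX males this was 1390 times as many per unit of TMM-scaled library size as in vehicle males (95% counting interval 249 to 54800). That interval leaves out the spread between libraries, and PTX replicate 2 held 754 of the 1193 reads. With at least 3 reads set in every library, the ratio of the group means was 137. The difference between PTX males and vehicle males had adjusted p = 0.228, that between vehicle females and vehicle males 0.502, and PTX males overlapped vehicle females. The fitted log2 fold changes of a gene with so few reads in 1 group depend on the prior count and are not given as sizes.

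Among the contractile genes, Acta2 encodes the smooth muscle actin that also marks myofibroblasts. It had 483, 566, 3.84 and 215 CPM in PTX males, against 216, 95.8, 169.5 and 112 CPM in vehicle females and 2.60, 139.7, 105 and 149.6 CPM in vehicle males. All but 1 of the PTX libraries lay above the vehicle males and the remaining one near the bottom, so the groups overlapped. The log2 fold changes were 1.68 ± 1.0 against vehicle males (adjusted p = 0.793) and 1.09 against vehicle females (adjusted p = 0.997). Reads without a unique place were not counted, so levels of actin genes with near-identical copies are uncertain.

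Tagln encodes transgelin, an actin-bundling protein of smooth muscle. It had 181, 148, 63.6 and 13.6 CPM in PTX males, against 70.6, 21.3, 27.1 and 25.8 CPM in vehicle females and 1.91, 90.4, 30.2 and 57.8 CPM in vehicle males. The highest values were those of PTX replicates 1 and 2, and the groups overlapped.

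Myh11 encodes the smooth muscle myosin heavy chain, a strict marker of the contractile state. It had 173, 319, 1.12 and 7.42 CPM in PTX males, against 83.55, 31.15, 61.9 and 2.09 CPM in vehicle females and 0.306, 27.2, 18.5 and 0.128 CPM in vehicle males. PTX replicates 1 and 2 were above every vehicle library, and PTX replicates 3 and 4 lay within the vehicle range. The log2 fold change against vehicle males was 3.44 ± 1.71 (adjusted p = 0.657).

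Myl9 encodes a regulatory light chain of smooth muscle myosin. It had 475, 346, 387 and 169 CPM in PTX males, against 125, 83.3, 69.1 and 70.2 CPM in vehicle females and 68.3, 131.5, 123 and 0.575 CPM in vehicle males. All 4 PTX libraries were above all 8 vehicle libraries, although the test did not call the difference. The log2 fold changes were 2.09 ± 0.871 against vehicle males (adjusted p = 0.504) and 1.99 ± 0.868 against vehicle females (adjusted p = 0.645).

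Cald1 encodes caldesmon, an actin-binding brake on contraction that non-muscle cells make too. It had 417, 503, 430 and 558 CPM in PTX males, against 407, 300.5, 263 and 203 CPM in vehicle females and 342, 449.5, 309.6 and 510.1 CPM in vehicle males. All PTX libraries lay above all vehicle females, while they overlapped the vehicle males. The log2 fold changes were 0.70 ± 0.333 against vehicle females (adjusted p = 0.690) and 0.24 ± 0.331 against vehicle males.

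Des encodes desmin, the intermediate filament of muscle that is also found in many pericytes. It had 74.9, 185, 0.640 and 23.2 CPM in PTX males, against 54.6, 32.2, 19.2 and 24.4 CPM in vehicle females and 22.4, 5.76, 28.9 and 0.320 CPM in vehicle males. The 2 highest values were PTX libraries and so was 1 of the 2 lowest, and the groups overlapped. Skeletal muscle also makes desmin. Its 11 markers summed to 2.17 to 22.3 CPM in PTX males, 0.559 to 10.8 CPM in vehicle females and 0.769 to 62.5 CPM in vehicle males, with Myh4 at 0 in all 12 libraries; their part in the Des values was not tested.

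**Figure D1:**
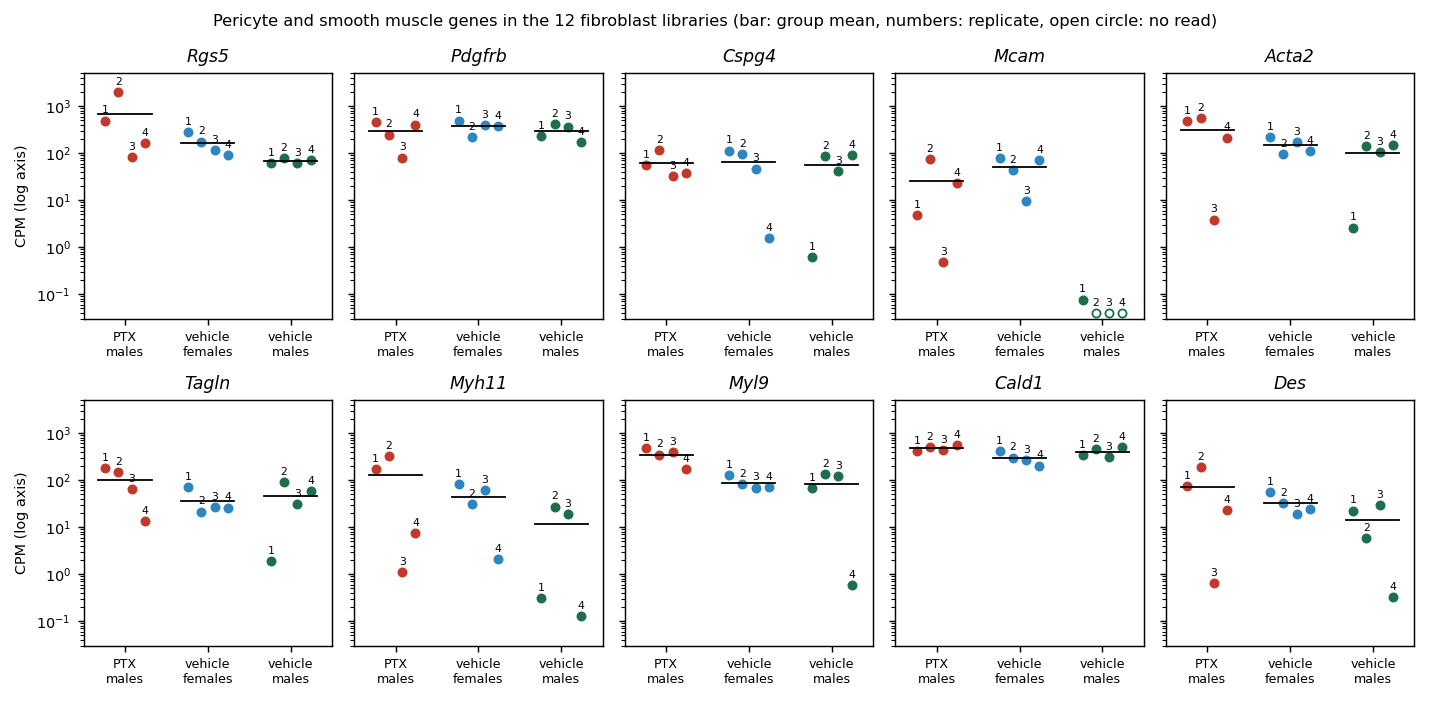
Level of the 10 genes in the 12 fibroblast libraries, in CPM on a log axis, with a point per library numbered by replicate, a bar for the group mean and an open circle for a library with no read. PTX replicates 1 and 2 lie at or near the top for most genes, Myl9 of all 4 PTX libraries lies above both vehicle groups, and Mcam is at 0 in 3 vehicle male libraries.

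Against vehicle females the 10 genes were called in 0 cases as well, beside 0.0276% of all genes. At an unadjusted p under 0.05 there were 3 of 10 (Rgs5, Myl9 and Cald1), against 7.19% of all genes; DESeq2 called 0, against 2.33% of all genes, and limma with voom quality weights 0. For 2 of 10 genes (Myl9 and Cald1) the PTX libraries lay wholly above the vehicle females, against 2.64% of all genes. The median log2 fold change of the 10 was 1.11, beside 0.18 over all genes. Vehicle females and vehicle males were also compared, with 0 of 10 called by edgeR, beside 0.0184% of all genes. There, 1 of 10 genes (Mcam) had an unadjusted p under 0.05, against 2.74% of all genes. Mcam was also the 1 gene called by DESeq2, against 0.601% of all genes, and by limma with voom quality weights, against 0.0921%. The vehicle female libraries lay wholly above the vehicle males for 2 of 10 genes (Rgs5 and Mcam), against 2.18% of all genes. The comparisons with PTX males share those libraries, so their values are not independent.

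The 10 genes did not vary evenly over the PTX libraries. PTX replicate 2 was the highest of the 12 fibroblast libraries for 5 genes and among the 3 highest for 9; PTX replicate 1 was the highest for 2 and vehicle female replicate 1 for 2. Vehicle male replicates 1 and 4 were each the lowest for 3. The summed level of the 10 genes was 2805, 4455, 1082 and 1610 CPM in PTX males, against 1921, 1100, 1183 and 971 CPM in vehicle females and 727, 1428, 1085 and 1051 CPM in vehicle males. PTX replicates 1 and 2 stood above all vehicle libraries, and PTX replicate 3 lay among them. PTX replicate 2 also held the fewest detected genes, 5360 with over 10 reads, against 7476 to 9532 in the other PTX libraries, 9502 to 10724 in vehicle females and 7010 to 10089 in vehicle males. The part of library complexity in the result was not tested.

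Other genes of the same cells were described from lists chosen by role. Of 16 further pericyte genes 15 were tested in fibroblasts, 0 were called against either vehicle group, and 13 had a positive log2 fold change against vehicle males (median 0.91). Their summed level was 1966, 3576, 767 and 1203 CPM in PTX males, against 843.5 to 1162 CPM in vehicle females and 1011 to 1327 CPM in vehicle males. The same PTX replicates 1 and 2 were again above both vehicle groups. Ednra, the endothelin receptor of mural cells, had 157.5 ± 105 CPM in PTX males and 36.1 ± 26.8 CPM in vehicle males (SD, n = 4 each; log2 fold change 2.13 ± 1.06, adjusted p = 0.66), with no overlap. Steap4, a metalloreductase of capillary pericytes, had 971 ± 933 CPM in PTX males and 511.5 ± 107 CPM in vehicle females (0.93 ± 0.440, adjusted p = 0.693). This 1 gene made up much of the summed level, whose means were 1878 CPM in PTX males and 1051 CPM in vehicle females.

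Of 20 further smooth muscle contractile genes 16 were tested, with 0 called, 14 positive log2 fold changes and a median of 0.47 against vehicle males. Tpm1, a tropomyosin gene, had 266 ± 269 CPM in PTX males and 107 ± 17.1 CPM in vehicle males (1.32 ± 0.612, adjusted p = 0.586). Of 16 genes of the PDGF and Notch signals between endothelium and mural cells, 13 were tested and 0 called, with a median of 0.24. The ligand gene Pdgfc had 35.7 ± 38.5 CPM in PTX males and 0.155 ± 0.155 CPM in vehicle males (adjusted p = 0.468), without overlap, and the fibroblast receptor gene Pdgfra had 596 ± 159 CPM in PTX males and 927 ± 155 CPM in vehicle males (-0.64 ± 0.281, adjusted p = 0.531). Of 9 regulators around serum response factor and myocardin 7 were tested and 0 called, with a median of -0.22; 11 myofibroblast genes had 0 called and a median of -0.57.

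Markers of other cells were measured beside these genes. All 12 fibroblast markers had a negative log2 fold change against vehicle males (median -0.48), and 1, the collagen gene Col3a1, fell to 4456 ± 1870 CPM in PTX males, against 13660 ± 4100 CPM in vehicle males (-1.62 ± 0.258, adjusted p = 0.0359). The fibroblast markers summed to 34680 to 54460 CPM in PTX males, 59110 to 63850 CPM in vehicle females and 53950 to 81110 CPM in vehicle males. The 12 endothelial markers summed to 238 to 431.5 CPM in PTX males, 238 to 470 CPM in vehicle females and 378 to 655 CPM in vehicle males. Cdh5 and Emcn had no read in any PTX library, Vwf and Cldn5 none in vehicle females, and Kdr none in vehicle males. The endothelial sums of PTX males overlapped those of both vehicle groups and reached no higher than theirs. The 8 pan-immune markers had 0 calls, with 8 positive log2 fold changes against vehicle females (median 1.92; 5 without overlap) and 6 against vehicle males (median 0.57). They summed to 19.0 to 72.3 CPM in PTX males, 7.64 to 22.6 CPM in vehicle females and 12.7 to 65.8 CPM in vehicle males. The part of other cells in the fibroblast values was not tested.

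**Figure D2:**
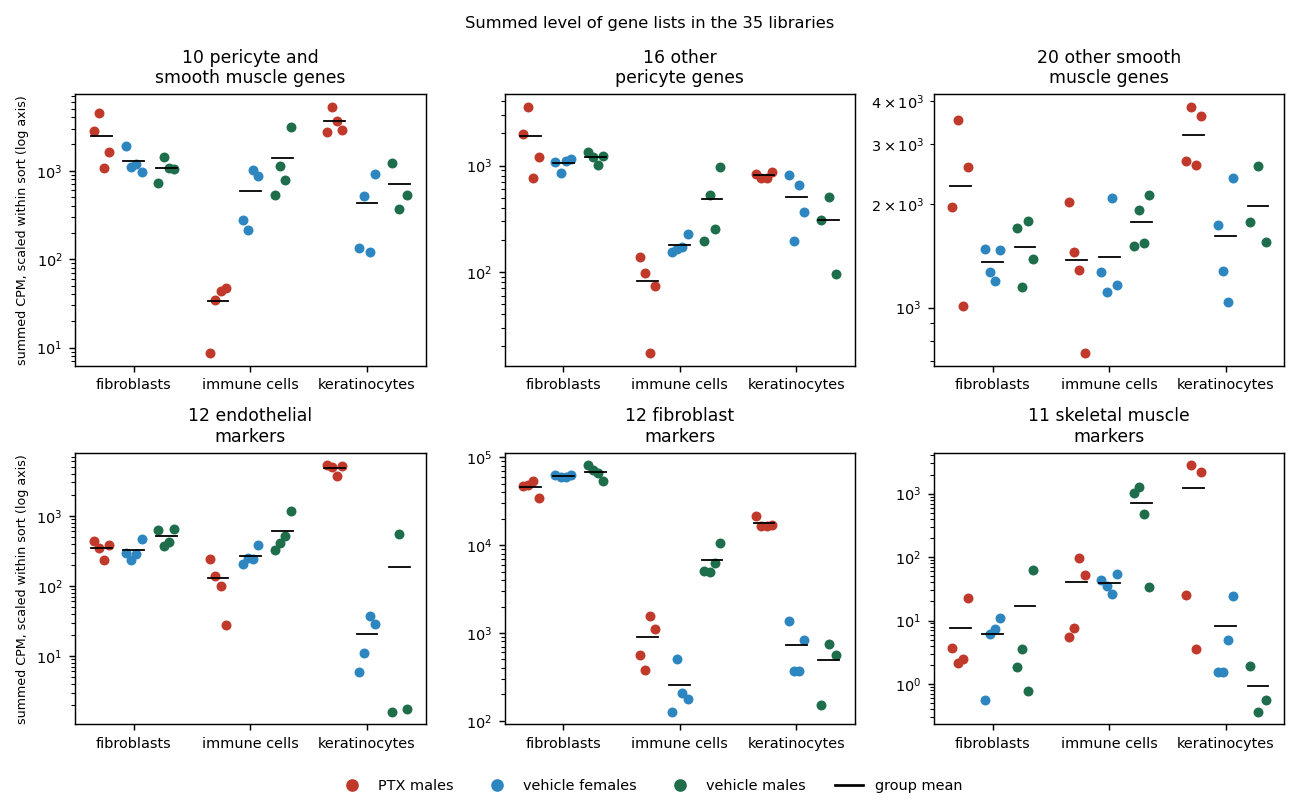
Summed CPM of 6 gene lists in each of the 35 libraries, on log axes that differ between panels, with a point per library and a bar for the group mean; values are scaled within each sort. The endothelial markers of fibroblasts overlap between groups, and both endothelial and fibroblast markers of the PTX keratinocytes lie above both vehicle groups.

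The genes that followed the 10 most closely were sought over the 12 fibroblast libraries, by Pearson correlation with the mean of their standardised log2 CPM, among 9833 other genes with a mean of at least 5 CPM. The 10 highest were Sphk2 (r = 0.92), Ano1 (0.915), Bcor (0.907), Fto (0.904), Mlec (0.903), Yy1, Angptl4, Atxn2, Acat2 and D230025D16Rik (0.865). Ano1 encodes a calcium-activated chloride channel that smooth muscle and pericytes use in contraction. None of these 10 was on the lists of further pericyte or smooth muscle genes. The 99th percentile over all candidates was 0.753, and the libraries share group, depth and complexity, so these values only describe. Within the set, Myh11 followed the mean most closely (r = 0.928) and Cald1 least (r = 0.273).

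Across sorts, these transcripts were also measured in the vehicle libraries. Levels scaled over all libraries were compared between 8 fibroblast, 8 immune and 7 keratinocyte libraries of vehicle mice. Against immune cells 2 of 10 genes were higher in fibroblasts (Pdgfrb and Cald1), beside 7.22% of all 14459 genes tested, and 1 was lower (Mcam), beside 12.2%. Against keratinocytes 4 of 10 were higher in fibroblasts (Rgs5, Pdgfrb, Des and Cald1), beside 18.5% of all genes, and 0 were lower.

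Pdgfrb had the clearest order, with 397 ± 127 CPM in fibroblasts, 53.6 ± 58.5 CPM in immune cells and 0.334 ± 0.369 CPM in keratinocytes (SD, n = 8, 8 and 7). Fibroblasts lay above both without overlap, by log2 differences of 3.13 ± 0.731 (adjusted p = 0.00163) and 10.20 ± 1.14 (adjusted p = 3.41e-09). Cald1 had 422.5 ± 140 CPM in fibroblasts, 36.5 ± 31.0 CPM in immune cells and 78.2 ± 84.8 CPM in keratinocytes, again without overlap. The differences were 3.73 ± 0.609 (adjusted p = 1.15e-05) and 2.42 ± 0.613 (adjusted p = 0.00273).

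Rgs5 separated keratinocytes from the others, with 139 ± 87.5 CPM in fibroblasts, 102 ± 108 CPM in immune cells and 1.45 ± 1.49 CPM in keratinocytes. Fibroblasts were above keratinocytes by 6.91 ± 0.884 (adjusted p = 7.75e-08) and did not differ from immune cells beyond their spread (0.40 ± 0.611, adjusted p = 0.819). Des had 27.8 ± 19.6 CPM in fibroblasts, 61.9 ± 58.8 CPM in immune cells and 0.269 ± 0.207 CPM in keratinocytes, and only the last difference passed (6.75 ± 1.40, adjusted p = 3.20e-04). Mcam had 29.4 ± 39.4 CPM in fibroblasts, 37.2 ± 45.5 CPM in immune cells and 0.276 ± 0.270 CPM in keratinocytes. Its fitted difference between fibroblasts and immune cells passed (adjusted p = 0.029), with 1 read in the vehicle male fibroblasts, and it was lost in 8 of 16 fits that left out 1 library. The sexes went opposite ways. Vehicle females had 58.7 ± 36.4 CPM in fibroblasts and 5.96 ± 7.72 CPM in immune cells. Vehicle males had 0.0245 ± 0.0489 CPM in fibroblasts and 68.4 ± 46.6 CPM in immune cells.

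The contractile genes Acta2, Tagln, Myh11 and Myl9 did not separate the sorts. Acta2 had 148 ± 75.4 CPM in fibroblasts, 329 ± 293 CPM in immune cells and 118 ± 180 CPM in keratinocytes, and Myl9 had 99.6 ± 51.6 CPM in fibroblasts, 169 ± 173 CPM in immune cells and 61.8 ± 82.3 CPM in keratinocytes. Means of Tagln lay between 48.9 and 129 CPM, those of Myh11 between 32.9 and 59.7 CPM and those of Cspg4 between 19.8 and 71.2 CPM. For all 5 the sorts overlapped. The lowest immune library was above the lowest fibroblast library for each of the 4 contractile genes. The vehicle immune libraries also held fibroblast markers, summing to 4912 to 10700 CPM in males and 125 to 509.5 CPM in females. Their endothelial markers summed to 324 to 1180 CPM in males and 203 to 380 CPM in females. Skeletal muscle markers, of a tissue that also makes desmin, summed to 33.75 to 1266 CPM in males and 26.4 to 53.5 CPM in females. The part of other cells in the levels by sort was not tested.

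**Figure D3:**
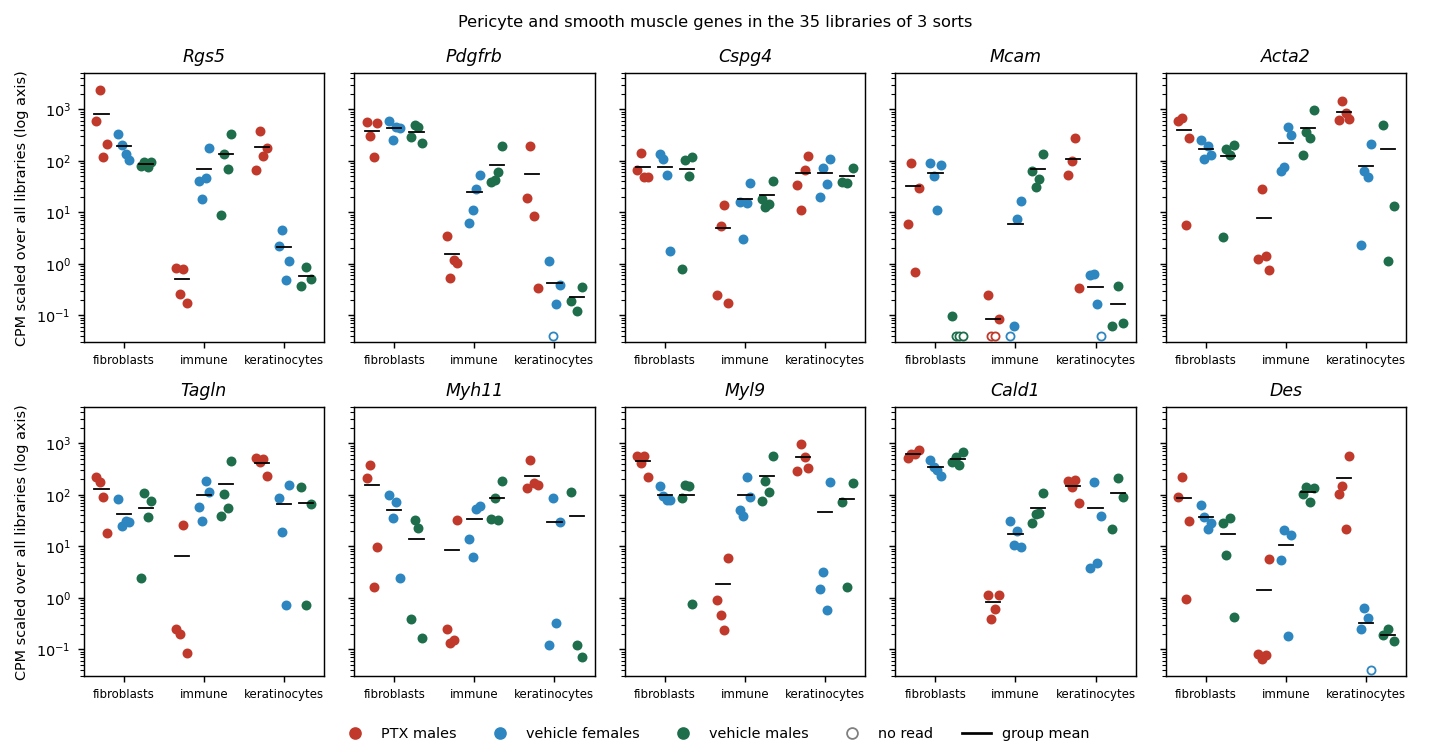
Level of the 10 genes in all 35 libraries, in CPM scaled over all libraries on a log axis, by sort and group, with a point per library, a bar for the group mean and an open circle for a library with no read. Immune libraries of PTX males lie below the vehicle groups for most genes. Keratinocyte libraries of PTX males lie above them for Rgs5, Des, Acta2, Tagln, Myh11 and Myl9.

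In immune cells of PTX males, Rgs5, Myl9 and Cald1 were lower than in both vehicle groups. Against vehicle males 6 of 10 genes fell (Rgs5, Pdgfrb, Mcam, Acta2, Myl9 and Cald1), beside 4.56% of all 12131 genes tested, and none rose. The PTX libraries lay wholly below the vehicle males for 8 of 10 genes, against 10.8% of all genes, and the median log2 fold change was -5.96, beside 0.10 over all genes. Against vehicle females 3 of 10 fell (Rgs5, Myl9 and Cald1), beside 1.53% of all genes, and 6 of 10 lay wholly below, against 5.6% of all genes. Limma with voom quality weights called 0 of 10 in either comparison. DESeq2 called 8 against vehicle males and 7 against vehicle females. Over all genes and both directions, DESeq2 called 1870 against vehicle males, where edgeR called 669. Its total over all genes against vehicle females was not counted, so the 7 calls there have no share over all genes beside them. Cspg4 and Myh11 were not called by edgeR and overlapped both vehicle groups.

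Rgs5 had 0.813, 0.261, 0.774 and 0.170 CPM in immune cells of PTX males, against 39.05, 18.2, 44.8 and 170.0 CPM in vehicle females and 9.01, 133, 68.5 and 334 CPM in vehicle males. Every PTX library was below 1 CPM and every vehicle library far above it. The log2 fold changes were -8.06 ± 1.28 (adjusted p = 0.00661) against vehicle males and -7.06 ± 1.23 (adjusted p = 0.0183) against vehicle females. Cald1 had 1.14, 0.392, 0.619 and 1.11 CPM in PTX males, against 29.7, 10.4, 19.6 and 9.40 CPM in vehicle females and 28.9, 42.6, 43.65 and 108 CPM in vehicle males. Again the PTX libraries were apart from both vehicle groups, by -4.40 ± 0.999 (adjusted p = 0.0424) and -6.09 ± 1.08 (adjusted p = 0.00879).

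Myl9 had 0.894, 0.457, 0.232 and 5.96 CPM in PTX males, against 49.4, 39.35, 221 and 88.1 CPM in vehicle females and 76.2, 188.5, 113 and 573 CPM in vehicle males. The groups did not overlap, with log2 fold changes of -5.72 ± 1.13 (adjusted p = 0.0304) and -6.98 ± 1.20 (adjusted p = 0.0076). Pdgfrb had 3.49, 0.522, 1.16 and 1.02 CPM in PTX males, against 5.94 to 52.3 CPM in vehicle females and 38.5 to 193 CPM in vehicle males, and fell against the males (-5.74 ± 1.14, adjusted p = 0.015). Against vehicle females its log2 fold change was -3.96 (adjusted p = 0.0801), also without overlap. Acta2 had 1.22, 27.3, 1.39 and 0.767 CPM in PTX males, against 62.2 to 440 CPM in vehicle females and 127 to 979.5 CPM in vehicle males (-5.82 ± 1.28 against vehicle males, adjusted p = 0.0224). Mcam had 4 reads in all PTX libraries together and 5431 in the vehicle males. Per unit of TMM-scaled library size this was 926 times as many in vehicle males (95% counting interval 362 to 3400, edgeR adjusted p = 0.0311). That interval leaves out the spread between libraries. With at least 3 reads set in every library, the ratio of the group means was 297.

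The calls against vehicle males rested unevenly on single libraries. Rgs5, Myl9 and Cald1 kept theirs in all 8 fits that left out 1 library. Acta2 and Pdgfrb each lost theirs once, without vehicle male replicate 4 (adjusted p = 0.0592 and 0.0571), which was the highest of the 12 libraries for 9 of the 10 genes. Mcam lost its call in 6 of the 8. Against vehicle females Rgs5 lost its call in 2 of 8 such fits, and Myl9 and Cald1 in 4 of 8 each.

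Markers of other tissue cells also fell in the immune sort, mostly against vehicle males. Over all genes 4.56% were lower against vehicle males and 1.53% against vehicle females. Of 12 endothelial markers 6 fell against vehicle males and 2 against vehicle females. Their sum was 27.9 to 246 CPM in PTX males, 203 to 380 CPM in vehicle females and 324 to 1180 CPM in vehicle males. Kdr and Emcn had no read in any PTX library. Of 8 skeletal muscle markers tested 2 fell against vehicle males and 0 against vehicle females. The 11 on that list summed to 5.61 to 95.45 CPM in PTX males, 26.4 to 53.5 CPM in vehicle females and 33.75 to 1266 CPM in vehicle males. Mean Des in these groups was 1.44, 10.6 and 113.5 CPM. Of 12 fibroblast markers 6 fell against vehicle males as well, with sums of 377 to 1541 CPM in PTX males, 125 to 509.5 CPM in vehicle females and 4912 to 10700 CPM in vehicle males. Against vehicle females 0 of the fibroblast markers fell and 1, Col1a2, rose. Of 15 further pericyte genes tested 5 fell against vehicle males and 1 against vehicle females. Notch3, the mural Notch receptor gene, had 0.120 ± 0.150 CPM in PTX males and 55.5 ± 55.6 CPM in vehicle males (SD, n = 4 each; -8.78 ± 1.75, adjusted p = 0.0151). Of 19 further smooth muscle genes tested 4 fell against vehicle males and 1 against vehicle females. Among the 4 was Tpm2, another tropomyosin gene, with 0.759 ± 1.32 CPM in PTX males and 138 ± 22.9 CPM in vehicle males (-7.51 ± 1.47, adjusted p = 0.0137). The immune libraries of PTX males held 5956 to 8700 genes with over 10 reads, against 10974 to 11036 in vehicle females and 11000 to 12813 in vehicle males. The part of these shifts in the mural result was not tested.

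In keratinocytes of PTX males, Rgs5 and Des were higher and 8 of the 10 genes were not called. Against vehicle males 2 of 10 genes rose (Rgs5 and Des), beside 1.15% of all 10939 genes tested, and against vehicle females the same 2 rose, beside 1.32%. The PTX libraries lay wholly above the vehicle males for 6 of 10 genes, against 9.15% of all genes, and wholly above the vehicle females for 6 of 10, against 6.6% of all genes. The median log2 fold change against vehicle males was 2.61, beside 0.07 over all genes.

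Rgs5 had 87.9, 468, 169 and 217 CPM in PTX keratinocytes, against 2.51, 5.47, 0.650 and 1.497 CPM in vehicle females and 0.526, 1.26 and 0.650 CPM in vehicle males. All PTX libraries lay far above all vehicle libraries, by log2 fold changes of 8.17 ± 1.96 (adjusted p = 0.0421) against vehicle males and 6.58 ± 1.60 (adjusted p = 0.043) against vehicle females. Both calls were lost in every fit that left out 1 library, with adjusted p up to 0.237.

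Des had 139, 181, 29.0 and 718 CPM in PTX keratinocytes, against 0.279, 0.782, 0.541 and 0 CPM in vehicle females and 0.263, 0.361 and 0.186 CPM in vehicle males. Vehicle females and vehicle males held 8 and 7 reads in all, beside 8241 in PTX males, so the ratio is given from the reads. Per unit of TMM-scaled library size, PTX males held 760 times as many as vehicle females (95% counting interval 386 to 1760, edgeR adjusted p = 0.0114). Against vehicle males they held 869 times as many (422 to 2160, adjusted p = 0.0248). Both intervals leave out the spread between libraries. With at least 3 reads set in every library, the ratio of the group means was 296 against vehicle females and 739 against vehicle males. The calls were lost in 1 of 8 and 5 of 7 fits that left out 1 library; without PTX replicate 4, the highest, adjusted p was 0.165 and 0.233. Beside it, the 11 skeletal muscle markers summed to 25.7, 2787, 3.60 and 2183 CPM in the PTX libraries, against 1.53 to 24.8 CPM in vehicle females and 0.361 to 1.93 CPM in vehicle males; 2 of the 4 PTX libraries stood far above the vehicle groups in these markers and all 4 did in desmin.

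The contractile genes were high in all 4 PTX keratinocyte libraries and uneven in the vehicle ones, and none was called. Acta2 had 835, 1806, 1131 and 814 CPM in PTX males, against 2.65, 78.2, 62.3 and 268 CPM in vehicle females and 688, 1.625 and 16.9 CPM in vehicle males. Tagln, Myh11 and Myl9 likewise had 296.5 to 716 CPM, 180.5 to 575 CPM and 402 to 1203 CPM in the PTX libraries, above all vehicle libraries. In vehicle libraries they ran over a wide range, from under 1 CPM up to 199.6 CPM for Tagln, 162 CPM for Myh11 and 232 CPM for Myl9. Log2 fold changes of these 4 genes lay between 2.28 and 3.52 over both comparisons, with adjusted p from 0.262 to 0.781. Mcam and Pdgfrb were uneven within the PTX group, with 0.427 to 375.5 CPM and 0.427 to 235 CPM, and both were lowest in PTX replicate 4. Cspg4 and Cald1 overlapped between all groups.

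The PTX keratinocytes held transcripts of several tissues besides. Of 12 endothelial markers 9 rose against vehicle males and 8 against vehicle females, and none was at 0 in all PTX libraries. Their sum was 3689 to 5256 CPM in PTX males, 5.85 to 37.7 CPM in vehicle females and 1.58 to 555.5 CPM in vehicle males, where Cdh5 and Tek had no read. Of 11 fibroblast markers tested 6 rose against vehicle males, with sums of 16460 to 21400 CPM in PTX males, 368 to 1358 CPM in vehicle females and 153 to 750.2 CPM in vehicle males. Of 8 pan-immune markers 2 rose, and their sum was 1034 to 1357 CPM in PTX males, 14.0 to 144 CPM in vehicle females and 11.6 to 67.0 CPM in vehicle males. Of 9 basal keratinocyte markers 4 fell, with sums of 3868 to 13350 CPM in PTX males, 17150 to 31130 CPM in vehicle females and 23900 to 32780 CPM in vehicle males. The part of other cells in the keratinocyte result was not tested.

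The difference between the PTX effects of 2 sorts was tested in a fit over all libraries, with vehicle males as the control in each. The PTX effect was more positive in fibroblasts than in immune cells for 7 of 10 genes (Rgs5, Pdgfrb, Mcam, Acta2, Myl9, Cald1 and Des), beside 1.64% of all 14459 genes tested, and 0 were called the other way. The same call was made for 5 of 12 fibroblast, 5 of 9 basal keratinocyte, 3 of 12 endothelial and 0 of 8 pan-immune markers. For Rgs5 the log2 difference was 11.3 ± 1.5 (adjusted p = 1.83e-05), for Myl9 9.13 ± 1.93 (adjusted p = 0.00708) and for Cald1 6.36 ± 1.20 (adjusted p = 0.00198). For Acta2 it was 7.46 ± 1.86 (adjusted p = 0.0265), for Pdgfrb 5.76 ± 1.45 (adjusted p = 0.0278) and for Des 8.57 ± 2.22 (adjusted p = 0.0327). The calls of Rgs5, Mcam, Myl9 and Cald1 held in all 16 fits that left out 1 library, while those of Acta2, Pdgfrb and Des were lost in 9, 8 and 10 of them. In immune cells 6 of these 7 genes fell with PTX and Des did not pass (adjusted p = 0.0515), and in fibroblasts none of the 7 was called.

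Against keratinocytes the PTX effect in fibroblasts was more negative for 3 of 10 genes (Rgs5, Pdgfrb and Des), beside 6.2% of all genes, and 0 were called the other way. It was also called more negative for 11 of 12 fibroblast, 7 of 12 endothelial, 7 of 8 pan-immune and 0 of 9 basal keratinocyte markers. The log2 differences were -5.05 ± 1.40 for Rgs5 (adjusted p = 0.0202), -7.81 ± 1.67 for Pdgfrb (adjusted p = 0.00195) and -7.75 ± 2.38 for Des (adjusted p = 0.0382). The last 2 depend on the prior count and are not sizes, since vehicle male keratinocytes held 9 reads of Pdgfrb and 7 of Des. The treatment labels of these sorts also differ (PTX-short in keratinocytes), which cannot be told apart from the sort. Pdgfrb kept its call in all 15 fits that left out 1 library, Rgs5 lost its call in 2 and Des in 9. The remaining 7 genes had adjusted p of at least 0.824, and the contractile genes had positive fitted changes in both sorts.

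**Figure D4:**
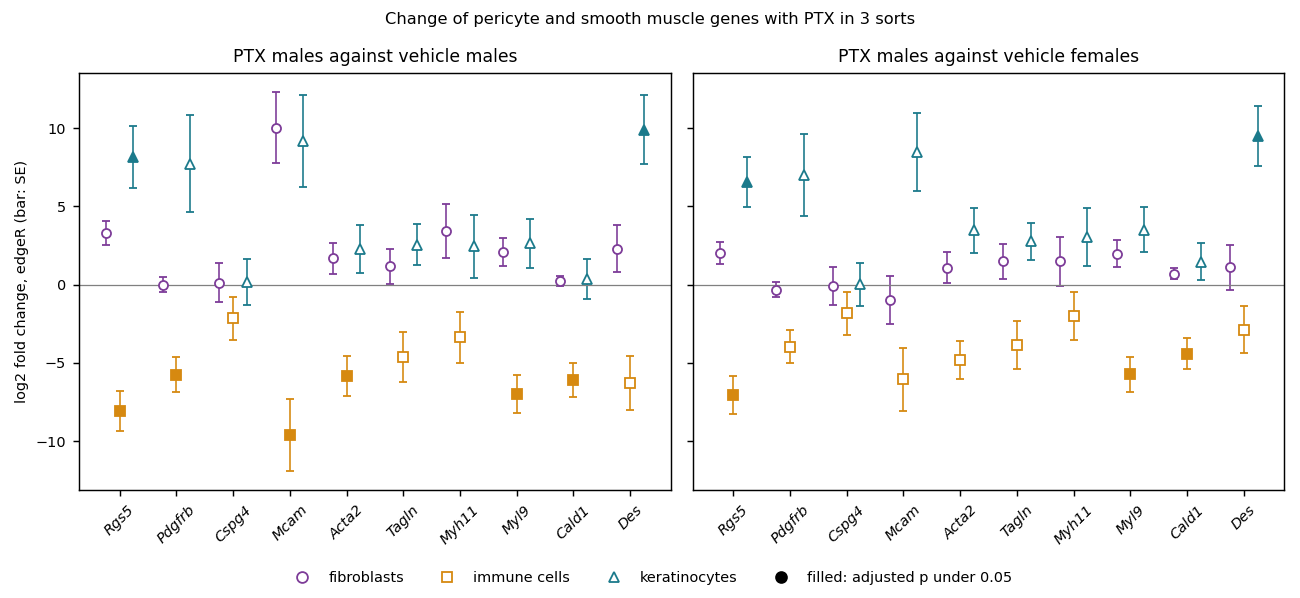
Log2 fold change of PTX males over vehicle males (left) and over vehicle females (right) for the 10 genes in the 3 sorts, with the SE as bars and filled symbols for an adjusted p under 0.05. Immune cells lie below 0 for all 10 genes, fibroblasts have no filled symbol, and keratinocytes have filled symbols for Rgs5 and Des; values of Mcam, and of Pdgfrb and Des in keratinocytes, rest on groups with few reads and depend on the prior count.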

How the data were processed

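Poly(A) RNA of sorted cells was sequenced as 50-base single-end stranded libraries, per the labels' protocols. Per the submitters' processing notes the authors used bcl2fastq, TopHat2, HTSeq and the build mm9; neither tool versions nor the gene annotation or strand option is given in the sources used here. What the authors deposited are raw read counts per gene symbol. Reads without a unique place made up 34.9% to 60.9% of a library's tally and reads in no gene 10.4% to 31%; these entries were left out.

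Each sort was fitted on its own over its 3 groups with edgeR 4.0.16 in R 4.3.3 (filterByExpr, TMM scaling, robust quasi-likelihood test, Benjamini-Hochberg adjustment at 0.05). One further fit over all 35 libraries gave levels by sort and differences between PTX effects. SEs were derived from the fold change and its F statistic, and CPM are counts over TMM-scaled totals. Other settings tried were DESeq2 1.42.0, RLE scaling, all genes without a filter, limma 3.58.1 voom with quality weights, a replicate block, other references and leaving out each library. Counting intervals and limits cover counting error only. The edgeR script was tested on simulated data. Duplicate libraries were sought among 51 pairs within groups, and none was found. The genes, the lists and the rule for genes named from them (up to 4 that passed with the lowest p or, where none passed, up to 2 with the lowest p) were chosen with earlier results of these data known.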

Additional observations from a re-analysis of the deposited data

Results flagged for a closer look

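Of 80 groups of 4 libraries examined, 12 held a library set apart from the others. Its gap to the nearest other, as a share of the group's range, was past Dixon's 95% critical value. That value is set for about 1 in 20 groups of independent, normally distributed values. The values here are CPM of genes measured in the same libraries, so how often chance passes it here was not measured. In immune cells of PTX males, Acta2 had 27.3 CPM in replicate 2 (0.767 to 1.39 CPM in the others) and Tagln 25.9 CPM in replicate 3 (0.0852 to 0.244 CPM). In the same group replicate 4 stood apart for 3 genes, with 32.9 CPM of Myh11 (0.131 to 0.244 CPM in the others), 5.54 CPM of Des (0.0653 to 0.0813 CPM) and 5.96 CPM of Myl9 (0.232 to 0.894 CPM). A different library thus carried each of the transcripts Acta2 and Tagln in a group otherwise nearly without them. In immune cells of vehicle males, replicate 4 held 452 CPM of Tagln (37.9 to 102 CPM in the others) and 193 CPM of Pdgfrb (38.5 to 59.2 CPM). In fibroblasts, Tagln had 70.6 CPM in vehicle female replicate 1 (21.3 to 27.1 CPM in the others), and Mcam had 0.0764 CPM in vehicle male replicate 1, a single read, with no read in the others. In PTX keratinocytes, replicate 2 held 575 CPM of Myh11 (180.5 to 229 CPM in the others) and 235 CPM of Pdgfrb (0.427 to 25.6 CPM). In vehicle female keratinocytes, Myl9 had 232 CPM in replicate 4 (0.758 to 3.91 CPM in the others).

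Between sorts, 10 PTX effects differed by the edgeR quasi-likelihood test of the difference. The effect in fibroblasts minus that in immune cells was 11.3 for Rgs5, 7.46 for Acta2, 5.76 for Pdgfrb, 8.57 for Des, 9.13 for Myl9 and 6.36 for Cald1 on the log2 scale. For Mcam it was 19.58, a fitted value that depends on the prior count and is not a size, since vehicle male fibroblasts held 1 read. The effect in fibroblasts minus that in keratinocytes was -5.05 for Rgs5, -7.81 for Pdgfrb and -7.75 for Des; the last 2 depend on the prior count too, with 9 and 7 reads in vehicle male keratinocytes.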

How the results depend on the processing

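Counts of the 10 genes called moved most with the tool. DESeq2 called 2 against vehicle males in fibroblasts (edgeR 0), 1 between vehicle females and vehicle males (0), 7 against vehicle females in immune cells (3), and 4 in each keratinocyte comparison (2). Voom with quality weights called 1 between vehicle females and vehicle males in fibroblasts, 0 in both immune comparisons (edgeR 6 against vehicle males), 1 against vehicle males in keratinocytes and 0 for the PTX effect in fibroblasts minus keratinocytes (3). With no filter, and with RLE scaling, each keratinocyte comparison had 1; fitting only the groups compared left 0 against vehicle females in immune cells. Counts over all genes in fibroblasts were 403 (DESeq2), 0 (voom), 4 (no filter), 1 (groups compared only) and 1 (RLE) against vehicle males, where edgeR called 2, and 240, 0 and 1 (DESeq2, voom, groups compared only) against vehicle females, where it called 3. In immune cells against vehicle males they were 1870 (DESeq2), 38 (voom) and 407 (no filter), beside 669. In keratinocytes against vehicle males they were 1339 (DESeq2), 339 (voom) and 586 (mean of both vehicle groups as reference), beside 159. DESeq2 totals over all genes were not counted against vehicle females in immune cells and keratinocytes, so its 7 and 4 calls there have no share beside them. Correlations of deviations between same-numbered libraries were low (-0.0532 to 0.0994). The closest library bore the same number for 4 of 12 fibroblast, 6 of 12 immune and 2 of 11 keratinocyte libraries. These values cannot exclude pairing. With the replicate block, the 10 genes had 0 calls against vehicle females in immune cells. In keratinocytes they had 1 against vehicle females and 0 against vehicle males, and immune cells against vehicle males had 148 genes.

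Leaving out 1 library at a time gave 1 to 3 genes against vehicle females and 0 to 4 against vehicle males in fibroblasts, 230 to 954 in immune cells and 84 to 121 in keratinocytes against vehicle males. Of the 10 genes it called 0 to 5 against vehicle females and 3 to 7 against vehicle males in immune cells, 0 to 2 and 0 to 1 in keratinocytes, 4 to 7 and 1 to 3 for the PTX effect in fibroblasts minus immune cells and minus keratinocytes, and 2 to 3 and 4 to 5 for fibroblasts over immune cells and over keratinocytes in vehicle mice.

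Signs turned only for genes that were not called. Cspg4 in fibroblasts had log2 fold changes of 0.34 (DESeq2 and RLE) and 0.24 (voom) against vehicle females (left-out range -0.60 to 0.29), -0.0396 (voom) and -0.0566 (replicate block) against vehicle males (-0.36 to 0.45), and -0.28 (voom) for vehicle females over vehicle males (-0.19 to 0.63). In keratinocytes it had -0.30 (voom), -0.10 (no filter) and -0.0911 (replicate block) against vehicle females (-0.56 to 0.52), and -0.34, -0.10 and -0.47 against vehicle males (-0.44 to 0.52). Under voom in fibroblasts, Des had -0.41 and Myh11 -0.12 against vehicle females, and Pdgfrb -0.0661 for vehicle females over vehicle males. Pdgfrb had 0.16 under DESeq2 and RLE against vehicle males (-0.30 to 0.30). Left-out ranges also crossed 0 for Cald1 in keratinocytes against vehicle males (-0.0883 to 1.37) and, for vehicle females over vehicle males in fibroblasts, for Myl9 (-0.30 to 0.44) and Tagln (-0.87 to 0.27). RLE scaling moved the median of all genes in fibroblasts to 0.23 against vehicle males (TMM 0.08) and to 0.43 against vehicle females (0.18). The causes were not tested.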
